A study of Mus musculus with 11 samples.

Results

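Fibroblast-like cells were 962 of the 50625 cells kept from 11 single-cell libraries of mouse brain cortex. They were chosen by transcripts alone. A cell was a member when decorin (Dcn) and the fibrillar collagen genes Col1a1, Col1a2 and Col3a1 together gave at least 8 unique molecular identifiers (UMIs, each 1 captured transcript), with at most 5 UMIs of the contractile genes Acta2, Tagln and Myh11, at most 2 of the endothelial genes Cldn5 and Flt1 and at most 3 of the microglial genes C1qa and C1qb. All levels of those genes are therefore descriptions and carry no test. The cells came from C57BL/6 mice whose cortex had been digested, cleared of myelin and captured with the 10x 3′ v2 assay. There were 4 Juvenile libraries (postnatal day 10), 3 Adult (7 to 11 weeks), 2 Aged (18 months) and 2 EAE libraries. EAE, experimental autoimmune encephalomyelitis, was induced in 7 to 11 week-old female mice with a myelin oligodendrocyte glycoprotein peptide in complete Freund's adjuvant, followed by pertussis toxin, and the other groups were untreated. Each Juvenile or Adult sample pooled cortex from 6 mice, and each Aged or EAE sample from 3. The labels do not say whether replicate libraries came from separate pools, so the p-values below measure only the spread between these libraries.

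Fibroblasts of the brain are rare cells of its coverings and of the sheath around larger vessels. They make the collagens and proteoglycans of the dura, arachnoid and pia, and they secrete growth factors and retinoids that act on the developing cortex below. The arachnoid carries tight junctions and transporters that close off the cerebrospinal fluid, the pia lies on the basement membrane of the brain surface, and a stroma of similar cells fills the choroid plexus. The labels name only cortex, and per the study's methods the brain surface was blotted to take off the meninges before dissection. Which of these sites each cell came from is therefore not known, and the part of the blotting in the number of members was not tested.

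Most members lay in the juvenile libraries. They numbered 155, 166, 316 and 283 cells in Juvenile 1 to 4, which was 5.79%, 6.50%, 7.58% and 6.89% of the kept cells. In the Adult libraries there were 7, 4 and 4 members, in the Aged libraries 8 and 6, and in the EAE libraries 8 and 5. As a share of all kept cells of a group, members were 6.81% of Juvenile cells (95% Wilson interval 6.40 to 7.25%), 0.138% of Adult (0.0838 to 0.228%), 0.142% of Aged (0.0847 to 0.239%) and 0.0792% of EAE cells (0.0463 to 0.135%). Each juvenile library lay above each of the others, and the Adult, Aged and EAE intervals overlapped. The dissociation and the dead-cell removal can set such shares, and their part was not tested. The intervals cover counting error only.

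**Figure D1:**
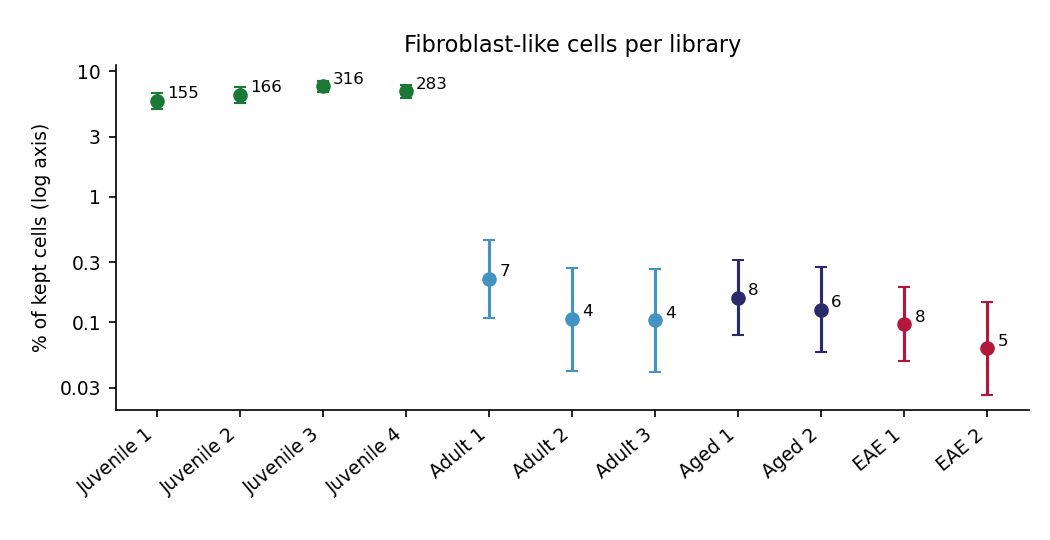
Share of kept cells that were fibroblast-like in each library, in percent on a log axis, with 95% Wilson intervals and the number of cells beside each point. The 4 Juvenile libraries lie between 5.79% and 7.58%, and the 7 others between 0.0618% and 0.220%.

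The cutoff fell within a continuous range of counts. Of the cells that met the other criteria, 22 had exactly 7 UMIs of the 4 genes and were left out, and 28 had exactly 8 and were taken. A Nov transcript was seen in 68.2% of the first and in 53.6% of the second, and an Slc47a1 transcript in 59.1% and 53.6%. The shares were lower in cells with 5 or 6 UMIs, at 23.7% and 29.7% for Nov and 13.6% and 16.2% for Slc47a1. With 9 to 11 UMIs they were 47.4% to 57.7% for Nov and 42.1% to 57.7% for Slc47a1. Among 1204 cells with at least 8 UMIs, 131 were set aside for contractile transcripts, 83 for endothelial and 57 for microglial ones, with some cells counted under more than 1 heading. Members held a median of 4332 UMIs and 2019 genes. Summed over members, the juvenile libraries held 925597 to 1515307 UMIs each and the others 17732 to 47837, so that 1 UMI was worth 0.660 to 1.08 CPM (UMIs scaled to a fixed total of summed member UMIs) in the former and 20.9 to 56.4 CPM in the latter. No member barcode occurred in more than 1 library among members, and pairs of whole libraries shared at most 125 barcodes. Scrublet marked 11 members as doublets, all juvenile. It marked 0.0785% and 0.105% of the cells of the Aged libraries, too few to rely on its calls there.

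The defining markers were present in every group, with gaps. Dcn, a small proteoglycan that binds collagen (chr10:97479609-97518143, GRCm38), stood at 2835, 2895, 3865 and 3831 CPM in Juvenile 1 to 4. It was 1061, 3552 and 1188 CPM in the Adult, 1777 and 1174 CPM in the Aged and 7998 and 3778 CPM in the EAE libraries. Col1a1, a chain of collagen I, was 2580, 2029, 1979 and 1874 CPM in the juvenile libraries, 951, 2131 and 919 CPM in Adult, 669 and 1006 CPM in Aged and 295 and 1241 CPM in EAE. Col3a1, the chain of collagen III, was 958 to 1865 CPM in the juvenile and 67.1 to 836 CPM in the older libraries, a description because the rule used it. Pdgfra, a receptor common to mesenchymal cells, was 31.1 to 103 CPM in juvenile members and 83.6 to 613 CPM in Adult and Aged members. Its levels overlapped, and it was called as lower in juvenile cells over libraries as samples (adjusted p = 0.012, edgeR) but not over the 6 units (adjusted p = 0.11, edgeR), 2 fits described below.

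Nov (Ccn3), a secreted matricellular protein that was not in the rule, divided the cells. It was 865, 918, 1128 and 1268 CPM in Juvenile 1 to 4, 1866, 1045 and 958 CPM in Adult 1 to 3 and 334 and 1979 CPM in Aged 1 and 2. In the EAE libraries no UMI of Nov was counted among 58367. The juvenile values lie inside the range of the older ones. Of juvenile members 71.8% held a Nov UMI, against 3.62% of the endothelial cells of the same libraries. Those endothelial cells had a higher median depth (6072 against 4286 UMIs). They include 60 cells set aside from membership for endothelial transcripts, so their share does not measure free RNA alone. Among Adult and Aged members 14 of 29 held one, and among EAE members 0 of 13.

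Juvenile members were also set against all other cells of the same libraries, where the highest ratios belonged to genes of mixed kind. These comparisons follow from how the cells were chosen and are given without a test. Of 3338 genes with at least 50 CPM in juvenile members, 209 were at least 4-fold above the other cells in each of the 4 libraries. Behind Dcn and Col1a1, the rest of the 10 highest ratios belonged to Igfbp6, which binds insulin-like growth factors, Nov, the enkephalin precursor Penk, the collagen VI genes Col6a1 and Col6a2, the efflux transporter Slc47a1, the zinc finger gene Bnc2 and the mineralization inhibitor Mgp. Nov was on average 5.64 ± 0.45 (SD, n = 4 libraries) higher on the log2 scale with a prior of 10 CPM. Igfbp6 was 1359 CPM in members and 13.7 CPM in other cells, Penk 645 and 5.30 CPM, and Slc47a1 518 and 4.28 CPM. Connexin genes followed, Gjb2 at 371 CPM against 5.28 and Gjb6 at 587 CPM against 14.6.

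Juvenile members were not of 1 kind. Clustering of the 920 juvenile cells gave 10 subclusters, which are called here by number and leading genes and whose defining genes are a description. At a lower Leiden resolution of 0.3 there were 8, and the 39 cells led by Tcf21 below then lay in a subcluster of 114 cells, while at 0.8 there were 14 and those cells formed 1 of their own. In 6 of them (1, 2, 3, 5, 8 and 9), which held 717 cells or 77.9%, Nov exceeded 500 CPM. In subclusters 4, 6 and 7 it was 4.62, 0 and 0 CPM.

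The largest Nov-high subclusters, 1 and 2, differed in their leading genes. Subcluster 1 (265 cells) was led by Penk at 1479 CPM against 367 CPM in the remaining juvenile members, the natriuretic peptide gene Nppc (586 against 185 CPM) and the imprinted RNA H19 (618 against 214 CPM), with Slit3, Plagl1 and Slc47a1 next. Subcluster 2 (176 cells) was led by Dapl1 (574 against 26.8 CPM), mesothelin (Msln, 588 against 29.8 CPM) and integrin Itgb4. It also had the highest level of the prostaglandin D synthase Ptgds among subclusters (4794 CPM), of E-cadherin (Cdh1, 344 CPM against 48.7 CPM in the rest) and of the peptidase Dpp4 (115 against 12.2 CPM). Cdh1 and Dpp4 stood on the list of arachnoid barrier genes. On the same list, the tight junction gene Cldn11 was 2278 CPM in subcluster 2 and 1177 CPM in subcluster 1, and the retinoic acid binding protein Crabp2 was 843 and 498 CPM. Slc47a1 ran the other way, with 402 CPM in subcluster 2 and 976 CPM in subcluster 1. The retinol receptor Stra6 was 581 CPM in subcluster 2 and 189 CPM in subcluster 1.

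The other Nov-high subclusters had leading genes of other kinds. Subcluster 3 (128 cells) was led by Slc39a1, Notch2 and the splicing factor gene Arglu1, and its Col1a1 level was 2549 CPM beside 2182 CPM in subcluster 1. Subcluster 5 (89 cells) was led by Atf3 and by immediate early genes, which cells transcribe quickly after stimulation. Fos was 5523 CPM there and 1522 CPM in subcluster 1. Subcluster 8 (31 cells) was led by haemoglobin genes in summed UMIs, with Hbb-bs at 55718 CPM, and had a median of 2429 UMIs per cell. Hbb-bs was seen in 35.5% of its cells and in 49.7% of the other juvenile members. Subcluster 9 (28 cells) was led by the division genes Birc5, Rrm2 and Top2a. The clustering left out only the 27 genes of the cell cycle list, and not all leading genes of this subcluster were on that list.

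Subcluster 4 (110 cells) carried the most collagen and a transporter set of its own. Col1a1 was 4394 CPM, Col1a2 3302 CPM and Col3a1 3192 CPM, each the highest of the 10 subclusters. It was led by the GABA and taurine transporter Slc6a13 (1928 against 3.31 CPM in the rest), the vessel-associated collagen Col15a1 (527 against 1.78 CPM), Clec3b, the organic anion transporter Slc22a6 (557 against 5.10 CPM), S100a6 and endothelin 3 (Edn3). Vitronectin (Vtn) was 9114 CPM there and 316 CPM in the rest. The basement membrane gene Col4a1 was 1734 CPM there, 2679 CPM in subcluster 6 and 102 CPM in subcluster 1. The retinoic acid synthases Aldh1a1 and Aldh1a2 were 496 and 319 CPM in subcluster 4 and 14.0 and 1.75 CPM in subcluster 1. Its growth factor genes differed too. Igf2 was 1868 CPM, Igfbp2 6139 CPM, the chemokine Cxcl12 4429 CPM and pleiotrophin (Ptn) 2543 CPM, against 462, 1734, 998 and 183 CPM in subcluster 1. S100a6, of the 3 genes on the pial list, was 2661 CPM in subcluster 4 and 30.7 CPM in subcluster 1.

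Subcluster 7 (39 cells) was led by the mesenchymal transcription factor Tcf21. Tcf21 was 741 CPM there and 0.462 CPM in the remaining juvenile members. Moxd1 (1271 against 8.78 CPM), the dipeptidase Dpep1 (453 against 0 CPM), endomucin (Emcn), integrin Itga8 and secretin (Sct) followed, with the iron carrier transferrin (Trf, 972 against 62.4 CPM) and the iron oxidase Heph. Igfbp7, a secreted binding protein, was 7899 CPM against 586 CPM. Periostin (Postn) was 599 CPM and the adhesion molecule Vcam1 721 CPM, against 36.0 and 45.3 CPM. Lum, a collagen-binding proteoglycan, was high in subclusters 4 and 7 (1391 and 1319.8 CPM) and low in subcluster 1 (95.5 CPM).

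In 2 small subclusters the transcripts went against the label. Subcluster 6 (43 cells) was led by the pericyte genes Rgs5 (13836 CPM), Higd1b and Kcnj8 (1421 CPM), held Dcn at 39.8 CPM and Col3a1 at 1779 CPM, and met the rule at a median of 12 UMIs. Subcluster 10 (11 cells) was led by genes of choroid plexus epithelium, with Ttr at 266224 CPM and Folr1 at 1062 CPM. Both are kept as members by the rule and are part of the tests below and of the levels by library, but not of the values for like cells or the counts of called genes given at the end without cells of this kind.

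**Figure D2:**
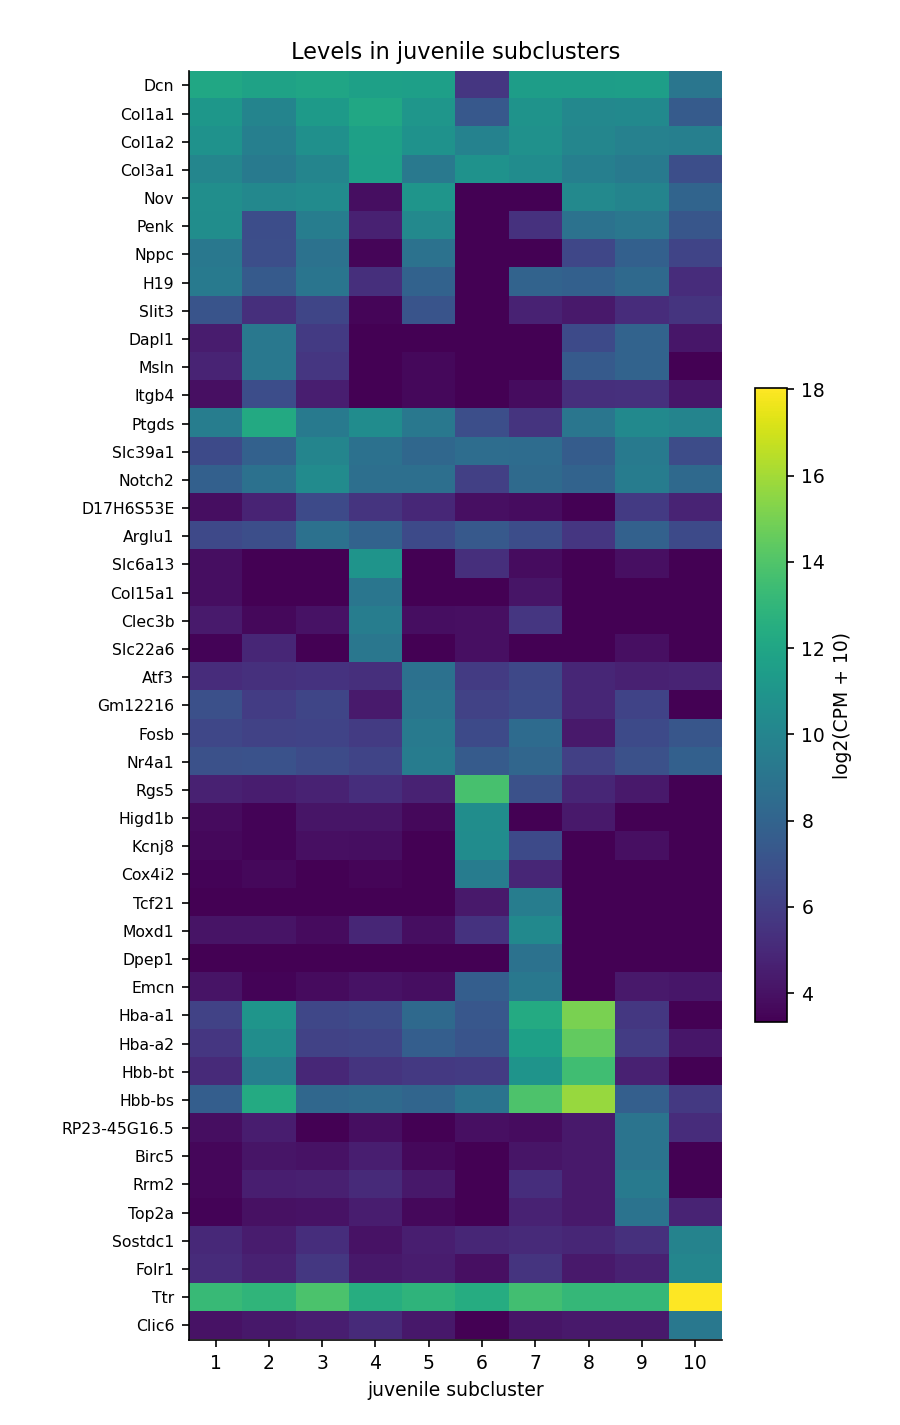
Levels of the 4 genes of the rule, Nov and the leading genes (rows) in the 10 juvenile subclusters (columns), as log2(CPM + 10) of summed UMIs. Nov is dark in subclusters 4, 6 and 7, where Slc6a13, Rgs5 and Tcf21 stand out in turn.

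Subcluster shares differed between library pairs. Subcluster 1 held 16.1% and 17.5% of the members of Juvenile 1 and 2 and 34.2% and 36.4% of those of Juvenile 3 and 4. Subcluster 4 held 25.2% and 16.3% of the former and 7.28% and 7.42% of the latter. Subcluster 6 was 17 and 23 cells in Juvenile 1 and 2 and 0 and 3 cells in Juvenile 3 and 4, while subcluster 10 was seen in Juvenile 3 and 4 alone (8 and 3 cells). Subcluster 7 was present in all 4, with 8, 12, 8 and 11 cells. The summed counts of members differed in the same pattern. A chi-square statistic per degree of freedom over genes was 2.04 between Juvenile 1 and 2 and 2.04 between Juvenile 3 and 4, and 7.84 to 12.6 between libraries of different pairs. Each pair was summed to 1 unit for the tests below. That choice was made beforehand, because earlier results had shown these pairs, Adult 2 and 3 and Aged 1 and 2 to be nearly identical in other cell types. EAE 1 and 2, not named there, were summed as well. In members, with far fewer UMIs, the statistic was 3.04 between Adult 2 and 3, 4.43 between Aged 1 and 2 and 3.96 between EAE 1 and 2. Haemoglobin transcripts moved with the pairs, with Hbb-bs at 10538 and 4838 CPM in Juvenile 1 and 2 and 70.0 and 73.4 CPM in Juvenile 3 and 4, and their part was not tested. Female mice were used by default per the study's methods, while Y-linked transcripts were counted in members of Juvenile 3 and 4 and of no other library, which goes against that for these 2 libraries. The part of sex in the differences between pairs and ages was not tested.

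**Figure D3:**
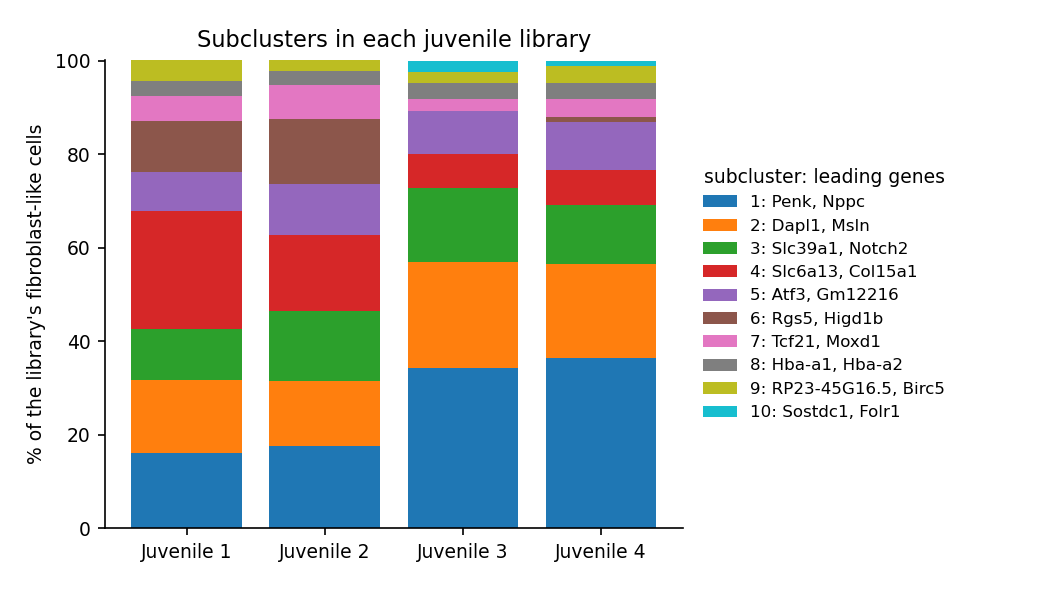
Share of each juvenile library's fibroblast-like cells in each subcluster, in percent, with 2 leading genes per subcluster in the legend. Subcluster 1 is 16.1% and 17.5% in Juvenile 1 and 2 and 34.2% and 36.4% in Juvenile 3 and 4, and subcluster 6 holds 17 and 23 cells in Juvenile 1 and 2 against 0 and 3 in Juvenile 3 and 4.

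The few members of the other groups were often nearest to the Tcf21-led kind. Each of the 42 cells was assigned to the juvenile subcluster whose mean profile over 249 leading genes it correlated with best. The same step returned 88.2% of juvenile cells to their own subcluster. The genes and profiles had been taken from those same juvenile cells, so that share does not measure how well other cells were assigned. The best correlation of the 42 cells had a median of 0.72 and was 0.39 at the lowest. Of 29 Adult and Aged members 12 were nearest to subcluster 7, and of 13 EAE members 11 were, against 4.24% of juvenile members in that subcluster. By library this was 0 of 7, 2 of 4 and 2 of 4 in Adult 1 to 3, 6 of 8 and 2 of 6 in Aged 1 and 2 and 8 of 8 and 3 of 5 in EAE 1 and 2. Adult 1 stood apart, with 2 cells nearest to the Slc6a13-led subcluster 4 and Ptgds at 28648 CPM. The profiles were used to make the groups, so no test was run on these counts.

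The same split was then counted in single cells with leading genes of subcluster 7, which gives no independent support. Among Adult and Aged members, 14 cells held Nov and none of Tcf21, Dpep1, Inmt and Moxd1, 13 held at least 1 of these and no Nov, 2 held neither, and no cell held both. Among EAE members 11 of 13 held the second set alone. Among 920 juvenile members the counts were 649 with Nov alone, 51 with the second set alone, 12 with both and 208 with neither. Tcf21 itself was seen in 35 juvenile, 12 Adult or Aged and 9 EAE members, and in 0.195%, 0.0961% and 0.0491% of the endothelial cells of those groups. The 4 genes were chosen after their values had been seen.

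Juvenile members were compared with Adult and Aged members on summed UMIs with edgeR's quasi-likelihood test. With at least 10 cells per unit, as designed, the fit held Juvenile 1+2, Juvenile 3+4, Aged 1+2 and EAE 1+2, because the Adult units had 7 and 8 cells. That left 1 residual degree of freedom, and the lone older unit was assumed to vary like the juvenile ones. No gene of 10604 was called at an adjusted p of 0.05 (0%), 1260 had an unadjusted p below 0.05, and DESeq2 on the same sums called 63. With units of at least 5 cells, a limit set after seeing the counts, all 6 units entered and 8 of 2043 genes were called (0.392%), 1 higher and 7 lower in juvenile cells. Without Adult 2+3 or without Aged 1+2 that fit called 0, and without Adult 1 it called 144. The filter on low counts kept genes high enough in 1 unit, so a gene could enter through only the group where it was high. The gene called as higher entered only through juvenile units, and the 7 called as lower only through older or EAE units. Their split by direction is therefore a description. With each library of at least 4 cells as a sample, 238 of 1055 genes were called (22.6%), 92 of them higher in juvenile cells. That last fit treats as separate samples the libraries that the other fits summed to units. The filter on low counts applied to it as well, so a gene could enter through only the group where it was high. Counts by list and direction from that fit are therefore a description.

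The gene called as higher in juvenile members was H19, an imprinted RNA that is transcribed in fetal tissues and lies beside Igf2 (chr7:142575529-142578143). It was 386, 321, 290.4 and 284 CPM in Juvenile 1 to 4. No H19 UMI was counted in any Adult, Aged or EAE library. The juvenile level was at least 16.3-fold higher, taking 3 UMIs over the pooled Adult and Aged cells as the limit of detection (adjusted p = 0.027, edgeR, units of at least 5 cells). In all other cells of the same libraries H19 was 2.55 to 7.29 CPM in juvenile and 0 to 2.06 CPM in older libraries.

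Igf2, Meg3 and Cdkn1c, also on the imprinted growth list, lay on the same side. Igf2, a fetal growth factor (chr7:142650766-142666816), was 666, 620.1, 495 and 484 CPM in Juvenile 1 to 4, 293, 83.6 and 38.3 CPM in Adult 1 to 3 and 41.8 and 0 CPM in Aged 1 and 2. The groups did not overlap, and the pooled juvenile level was 6.59-fold higher (log2 difference 2.62 ± 0.69 SE, adjusted p = 0.12 by edgeR over 6 units). Meg3, a maternally expressed RNA of chr12:109541001-109571726, was 1123, 1072, 897 and 1128 CPM in the juvenile libraries. In the older ones it was 109.8, 0, 268, 0 and 0 CPM in the order Adult 1 to 3, Aged 1 and 2. Its log2 difference was 3.94 ± 0.73 (adjusted p = 0.068, edgeR). Igfbp2, a carrier of insulin-like growth factors, was 2069.7 to 2556 CPM in juvenile and 134 to 805 CPM in older libraries, 4.88-fold higher when pooled (adjusted p = 0.068, edgeR). It stood on the list of insulin-like growth factors and not on the imprinted list. Of 6 tested genes there, 2 were called as higher over libraries as samples and 1, Igfbp7, as lower, with 0 of 6 over the 6 units. The cyclin-dependent kinase inhibitor Cdkn1c was 696 to 1117 CPM in juvenile and 168 to 476 CPM in older libraries. Over libraries as samples 4 of 5 tested imprinted growth genes were called as higher in juvenile cells and 0 as lower, with a median log2 difference of 2.66, where the median over all genes was -0.05 and 92 of 1055 genes were called as higher. Over the 6 units 1 of 6 was called, H19, and in the designed fit 0 of 15. H19 entered the fit over libraries only through juvenile ones, so the counts and median of that fit are a description. In other cells of these libraries Igf2 was 129 to 258 CPM in juvenile and 53.0 to 236 CPM in older ones, and Meg3 199.6 to 269 and 13.8 to 64.9 CPM. Meg3 also stood on the list of neuron markers.

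Matrix genes showed no single direction. The counts by list in this and the next paragraphs are over libraries as samples, a fit that called 92 of all 1055 genes as higher in juvenile cells and 146 as lower. Of 14 tested genes of the fibrillar and interstitial matrix list, 3 were called as higher (Mfap2, Fn1 and Mfap5) and 1 as lower (Lum), which is 28.6% beside 22.6% of all genes. Over the 6 units 0 of 18 were called. The microfibril gene Mfap2 was 1208, 1025, 1301 and 1382 CPM in Juvenile 1 to 4. It was 585, 167 and 229.8 CPM in Adult 1 to 3 and 167 and 570.2 CPM in Aged 1 and 2, with no overlap. Fibronectin (Fn1) was 745 to 865 CPM against 41.8 to 329 CPM. Lum was 206 to 496 CPM in juvenile members and 549 to 2632 CPM in Adult and Aged members. The collagen-processing chaperone Fkbp10 was 237 to 267 CPM against 38.3 to 125 CPM and was the 1 gene called of 7 tested on its list, with 0 of 9 over the 6 units. Among proteases and inhibitors 2 of 11 were called as higher in juvenile cells, the collagen-degrading Ctsk and Timp2, and 1 as lower, Itih5, which is 27.3% of the list, and 0 of 14 were called over the 6 units. Cldn11 was called as higher in juvenile cells among 3 tested arachnoid barrier genes, at 936 to 1449.9 CPM against 146 to 439 CPM, with 0 of 3 over the 6 units. On the retinoid list Stra6 was called as higher over libraries and the retinol carrier Rbp4 as lower, of 5 tested, with 0 of 8 over the 6 units. S100a6, the 1 pial gene tested, was called as higher over libraries but not over the 6 units (adjusted p = 0.15, edgeR). Of 9 tested secreted signals Bmp4 was called as higher and Gas6 and Ctgf as lower in juvenile cells, with 0 of 16 over the 6 units.

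Among MHC class I genes, 1 passed the test over units. H2-K1, a heavy chain of MHC class I, was 52.9, 54.3, 54.1 and 52.7 CPM in Juvenile 1 to 4. It was 256, 292 and 229.8 CPM in Adult 1 to 3, 229.9 and 469.6 CPM in Aged 1 and 2 and 566 and 733 CPM in EAE 1 and 2. The juvenile values did not overlap the older ones (log2 difference -2.37 ± 0.29, adjusted p = 0.024, edgeR over 6 units). B2m, the light chain, was 578 to 794 CPM in juvenile and 1024 to 3031 CPM in older libraries (log2 difference -1.36 ± 0.38, adjusted p = 0.14, edgeR). Over libraries as samples 5 of 6 tested MHC class I genes were called as lower in juvenile cells (H2-K1, H2-D1, B2m, H2-T23 and the immunoproteasome gene Psmb8) and 0 as higher, with a median log2 difference of -1.63. Over the 6 units 1 of 9 was called, and in the designed fit 0 of 11. H2-K1 entered the fit over libraries only through older or EAE ones, so the counts and median of that fit are a description. On the interferon list 3 of 5 were called as lower (Ifitm3, Bst2 and Irf1), and 0 of 10 over the 6 units. The interferon list summed to 3887 CPM in juvenile subcluster 7 and 1681 CPM in subcluster 1, and the part of the makeup of members was not tested. All other cells of the juvenile libraries also held less MHC class I. The MHC class I list summed to 2099 to 2532 CPM in other juvenile cells and 3180.1 to 7767 CPM in other cells of older libraries, and the part of free RNA was not tested.

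The remaining genes called as lower in juvenile cells over the 6 units were of mixed kind. Inmt, an amine methyltransferase, was 2.16, 7.17, 3.96 and 7.77 CPM in Juvenile 1 to 4. It was 36.6, 794 and 345 CPM in Adult 1 to 3 and 1066 and 302 CPM in Aged 1 and 2 (log2 difference -6.49 ± 0.82, adjusted p = 0.024, edgeR), and it was also among the 25 leading genes of subcluster 7. Rgcc, a regulator of the cell cycle, was 37.6 to 57.0 CPM against 109.8 to 815 CPM, and Fdps, an enzyme of isoprenoid synthesis, 52.1 to 81.2 CPM against 146 to 543 CPM. The unannotated transcript 9930013L23Rik, another leading gene of subcluster 7, was called as well. Ly6c1 and Cd74 mark endothelial and antigen-presenting cells. Ly6c1 was 17.3 to 26.8 CPM against 153 to 376 CPM in members, and 449.9 to 773 CPM against 1368 to 3908 CPM in all other cells. Cd74 was 40 to 113 CPM against 125 to 958 CPM in members, and 191 to 250.1 CPM against 573 to 1913 CPM in all other cells. The part of those other cells in the 2 differences was not tested. Immediate early and heat shock genes were called as lower in juvenile cells for 11 of 14 tested over libraries as samples, and for 0 of 16 over the 6 units. That list summed to 16975 CPM in subcluster 5, 10032 CPM in subcluster 7 and 4957 CPM in subcluster 1. Of 29 Adult and Aged members 6 were nearest to subcluster 5 and 12 to subcluster 7, which held 9.67% and 4.24% of juvenile members. The part of that makeup in the calls was not tested. Fos was 1393 to 1913 CPM in juvenile and 1646 to 6978 CPM in older members, and these overlapped.

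Igfbp7 and Vcam1, leading genes of subcluster 7, varied widely among the older libraries. Igfbp7 was 982, 1507, 678 and 935 CPM in Juvenile 1 to 4, 549, 14750.1 and 9309 CPM in Adult 1 to 3 and 8759 and 5333 CPM in Aged 1 and 2 (adjusted p = 0.32, edgeR over 6 units, and 0.0073 over libraries). Vcam1 was 54.8 to 97.2 CPM in the juvenile libraries, 73.2, 1045 and 958 CPM in Adult 1 to 3 and 857 and 839 CPM in Aged 1 and 2 (adjusted p = 0.11, edgeR over 6 units, and 8.7e-04 over libraries). Adult 1, in which 0 of 7 cells were nearest to subcluster 7, lay below the juvenile range for the first gene and within it for the second. Both genes were among the 249 that assigned the cells, so this follows in part from the assignment. The Vcam1 value of Adult 1 also lay below the level of 3 UMIs in that library, 109.8 CPM.

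**Figure D4:**
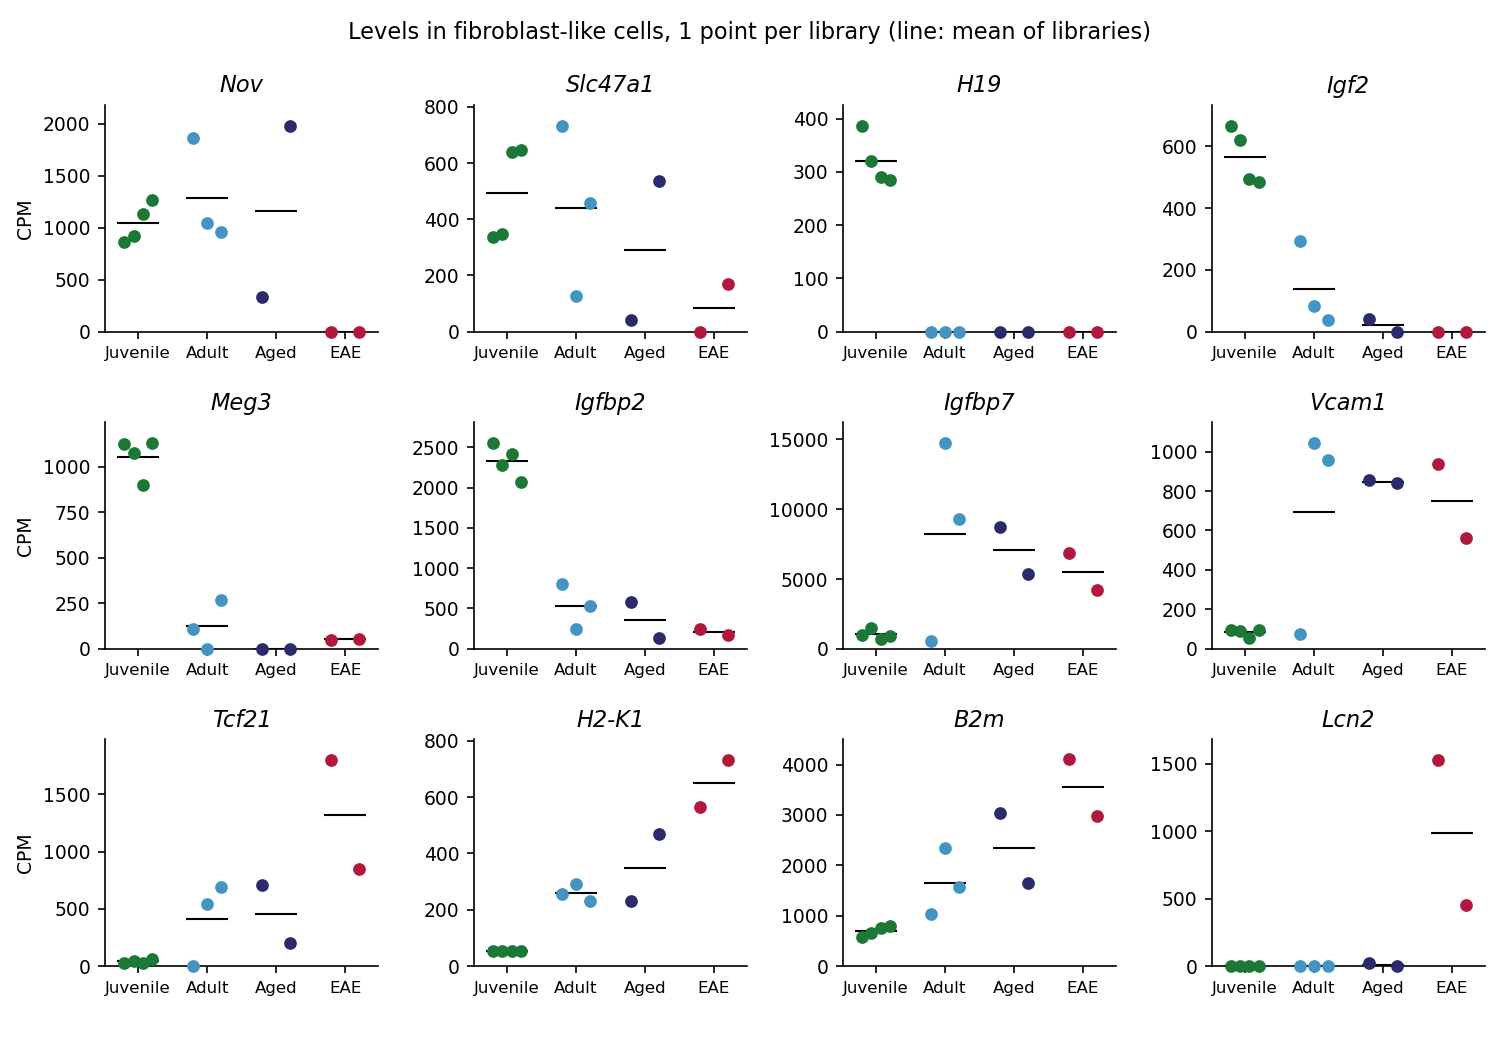
Levels of 12 genes in fibroblast-like cells as CPM of summed UMIs, 1 point per library, with lines at the mean of each group's libraries. H19 is at 0 in each library outside the Juvenile group, Nov at 0 in the 2 EAE libraries, and H2-K1 lies at 54.3 CPM or below in Juvenile and at 229.8 CPM or above elsewhere.

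Because the kinds of cell differed between groups, like cells were set side by side. The 12 Adult and Aged cells nearest to subcluster 7 held 86803 UMIs, the 11 EAE cells 53731 and the 39 juvenile cells of subcluster 7 247001. Intervals are 95% Poisson intervals of pooled UMIs, cover counting error only and say nothing of the spread between mice. The 249 leading genes assigned the Adult, Aged and EAE cells. H19 and Slc47a1, leading genes of subcluster 1, are among them, and their values in like cells are a description only.

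In Tcf21-led cells H19, Meg3, Cdkn1c and Igfbp2, picked after their values were seen, were lower outside the juvenile libraries. The other genes of the imprinted growth list are not given for these cells. H19 was 243 CPM in juvenile cells and was not counted in Adult and Aged cells, where 21.1 UMIs would have stood for the juvenile level. Meg3 was 1174 CPM in juvenile, 80.6 CPM (32.4 to 166) in Adult and Aged and 55.8 CPM (11.5 to 163) in EAE cells. Cdkn1c was 1146, 149.8 (79.7 to 256) and 261 CPM (142 to 437) in the same order, and Igfbp2 814, 161 (88.2 to 271) and 242 CPM (129 to 414). Among matrix genes outside the rule, the values differed in direction. Mfap2 was 1283, 323 (214 to 466) and 37.2 CPM (4.51 to 134), and Sparc, a collagen-binding protein, 3814, 1624 (1367 to 1916) and 596 CPM (407 to 841). Biglycan (Bgn) ran the other way, at 1117 CPM in juvenile, 2684 CPM (2351 to 3052) in Adult and Aged and 2308 CPM (1919.5 to 2752) in EAE cells. H2-D1, a second MHC class I heavy chain, was 149.8 CPM, 818 CPM (639 to 1032) and 2233 CPM (1852 to 2671), and Ifitm3, an interferon-induced membrane protein, 1255, 4193 (3774 to 4647) and 5639 CPM (5022 to 6311).

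In Nov-high cells the subclusters were unlike in proportion. Of 14 Adult and Aged cells 6 were nearest to subcluster 5 and 1 to subcluster 2, against 89 and 176 of 717 juvenile cells, and Cldn11 differs between those subclusters (1281 and 2278 CPM). The part of that makeup in the values below was not tested. The 14 Adult and Aged cells of this kind held 63153 UMIs against 3364132 in 717 juvenile cells. H19 was 403 CPM in juvenile cells and 0 of those 63153 UMIs in the others. Meg3 was 1047 CPM and likewise not counted, where 66.1 UMIs would have stood for the juvenile level. Cdkn1c was 1114 and 507 CPM (347 to 715), Igfbp2 1729 and 649 CPM (466 to 881) and Cldn11 1538 and 507 CPM (347 to 715). H2-K1 was 56.5 and 253 CPM (145 to 411), and B2m 723 and 1156 CPM (906 to 1453). Slc47a1 was 700.3 CPM in juvenile and 839 CPM (629 to 1098) in Adult and Aged cells, an interval that holds the juvenile value. Nov itself was 1439 and 2787 CPM (2390.4 to 3230.4). Nov was among the genes that set these cells apart, and its values are a description.

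**Figure D5:**
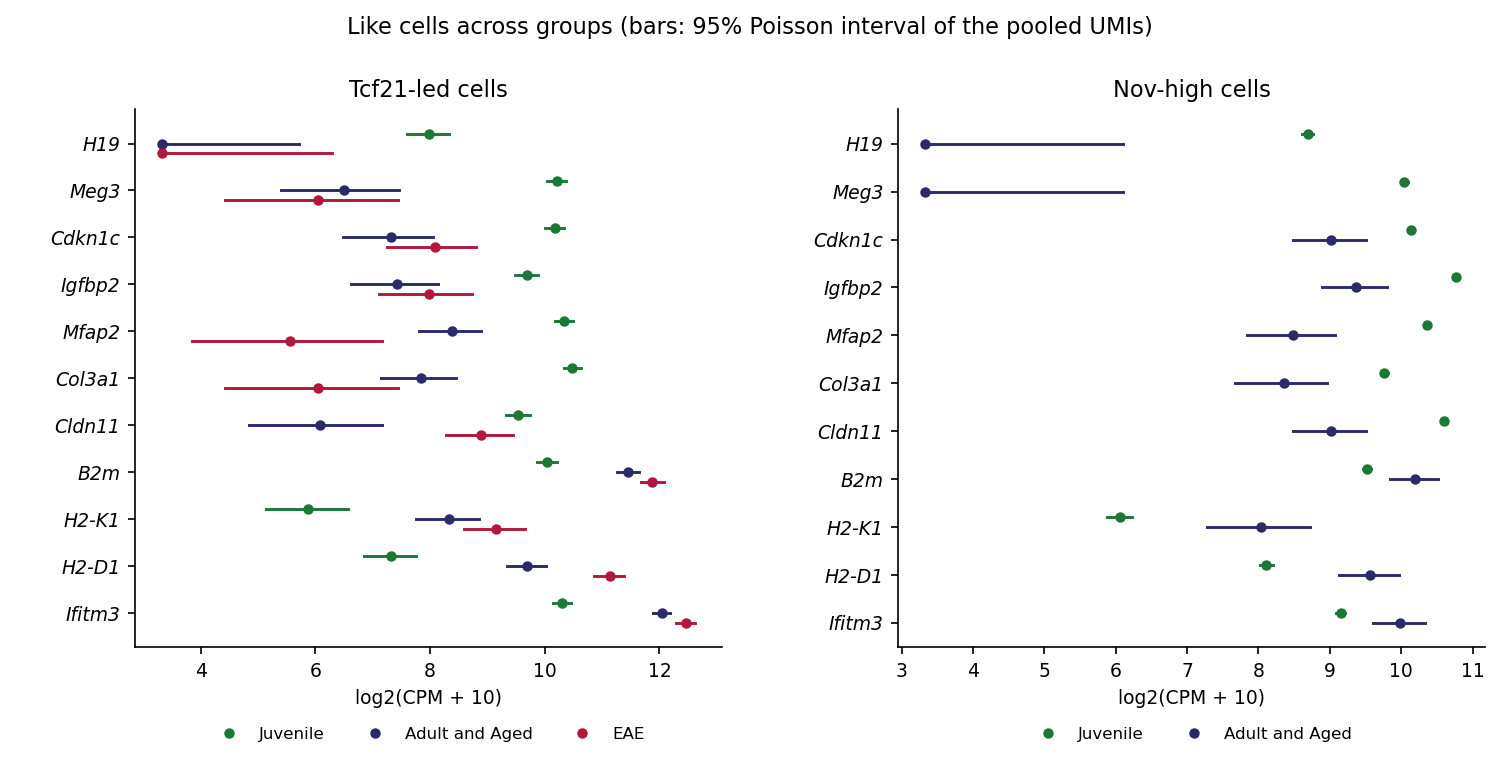
Levels of 11 genes as log2(CPM + 10) in Tcf21-led cells (left; Juvenile, Adult and Aged, and EAE libraries) and Nov-high cells (right; Juvenile, and Adult and Aged libraries), with 95% Poisson intervals of the pooled UMIs. H19 and Meg3 lie to the right in juvenile cells and H2-K1 and H2-D1 to the left in both panels.

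Few genes passed the test between EAE and Adult and Aged members. In the fit with at least 10 cells per unit 0 of 10604 genes were called (0%), 666 had an unadjusted p below 0.05, and DESeq2 called 7. With units of at least 5 cells 3 of 2043 were called (0.147%), Lcn2 and Gpx3 as higher and Nov as lower in EAE cells. The count was 1 without Adult 2+3 and 0 without Aged 1+2. Over libraries as samples 16 of 1055 were called (1.52%), 10 of them higher. EAE entered as 1 unit in the first fits and was assumed to vary like the others. The filter on low counts described above applied to these fits as well.

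Lcn2, lipocalin 2, is an acute-phase protein that binds bacterial iron carriers. It was 1526 and 451 CPM in EAE 1 and 2, 20.9 CPM or 1 UMI in Aged 1 and 0 in the other Adult and Aged libraries. The ratio of pooled levels was 186, with an exact 95% interval from counting of 32.3 to 7447 (adjusted p = 0.0025, edgeR, units of at least 5 cells). In all other cells Lcn2 was 494 and 495 CPM in the EAE libraries and 2.58 to 147 CPM in the older ones. Gpx3, a secreted glutathione peroxidase, was 418 and 4117 CPM in EAE 1 and 2 and 0 to 83.6 CPM in the older libraries (adjusted p = 0.0039, edgeR). Most of its UMIs in EAE 2 lay in the 2 cells not nearest to subcluster 7, which held 59 of 73. Nov was at least 22.1-fold lower in EAE members, with the limit of 3 UMIs set over the pooled EAE cells. Of EAE members 11 of 13 were nearest to the Tcf21-led subcluster, a kind without Nov, against 12 of 29 Adult and Aged members. The part of that makeup in the Nov difference was not tested. The other 2 EAE cells were nearest to Nov-high subclusters but held no Nov UMI among 4636. In the fit without Aged 1+2 none of the 3 was called.

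Within Tcf21-led cells, which hold no Nov in any group, Lcn2 was 1154 CPM (885 to 1479) in EAE and 11.5 CPM (0.292 to 64.2) in Adult and Aged cells. All 62 of its UMIs in EAE cells of this kind lay in the 8 cells of EAE 1, and the 3 cells of EAE 2 held 0 among 13096 UMIs, so the pooled value rests on 1 library. Apod, an apolipoprotein, was 10366 CPM (9523 to 11264) and 737 CPM (568 to 942), with 13363 and 902 CPM over all members of EAE 1 and 2, so that 543 of the 557 UMIs in EAE cells of this kind came from EAE 1. Apod was not called over the 6 units (adjusted p = 0.34, edgeR) or over libraries (adjusted p = 0.11, edgeR). Ifitm1 was 4969 CPM (4391 to 5602) and 1059.9 CPM (854 to 1299.8), and it was called as higher in EAE cells over libraries as samples (adjusted p = 0.029, edgeR) but not over the 6 units (adjusted p = 0.47, edgeR). Dcn was 6830.3 CPM in EAE and 2350.1 CPM in Adult and Aged Tcf21-led cells and Col1a1 279 and 841 CPM, a description because both genes chose the cells.

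Dividing cells were a minority of juvenile members. After each cell was thinned to 1500 UMIs, which left out 10 juvenile members, 9.09%, 12.8%, 3.49% and 7.58% of cells in Juvenile 1 to 4 held at least 2 UMIs of 27 cell cycle genes. Pooled, these were 67 of 910 cells, and without thinning the shares were 27.7%, 41.0%, 18.4% and 18.4%. In choroid plexus cells (over 20% Ttr) of the same libraries, given for comparison, the share was 2.14%. Whether that share stands for free RNA was not tested. Among Adult and Aged members 1 of 28 cells reached the limit and among EAE members 0 of 12, which allows a share of up to 25%. The mean over units was 8.21 ± 3.96% (SD, n = 2) in juvenile and 2.38 ± 4.12% (n = 3) in older members, a difference of 5.82 percentage points (exact permutation test, two-sided, p = 0.4, where 0.2 is the least that 2 against 3 allow). Over 4 against 5 libraries the exact permutation p was 0.127, and without Aged 1, which held the 1 older cell, it was 0.0286. Of the 67 cells 24 lay in subcluster 9, where 85.7% of cells passed, against 2.27% in subcluster 1 and 10.3% in subcluster 7. The share in subcluster 9 follows in part from the division genes that led it. The test over units could not pass at any number of cells.

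Some marker lists of other cell types differed between the groups and others overlapped. The endothelial list summed to 245 to 302 CPM in juvenile and 376 to 659 CPM in older members, without overlap, and to 4168 to 5095 and 4092 to 10691 CPM in the other cells. Cldn5 and Flt1 on this list were capped by the rule, so its level in members follows in part from the choice of cells. The neuron list, which holds Meg3, was 911 to 1143 CPM in juvenile and 0 to 268 CPM in older members, and the oligodendrocyte list, which holds Cldn11, 982 to 1509 and 146 to 575 CPM. Their part in the results was not tested. The choroid plexus list summed to 5022 to 29411 CPM in juvenile members, 5393 to 51954 CPM in older and 6005 to 6598 CPM in EAE members, and to 59569 to 122260.4 CPM in other juvenile cells. The mural list, in which the rule capped Acta2, Tagln and Myh11, was 1052 to 3996 CPM in juvenile, 62.7 to 2817 CPM in older and 56.4 to 172 CPM in EAE members. It holds Vtn, which was 9114 CPM of the list's 9209 CPM in subcluster 4. In the Rgs5-led subcluster 6 the list summed to 21396 CPM. Markers of T and NK cells were not counted in any older or EAE member (4 of 4 at 0). The microglia and macrophage list stood at 311 to 452 CPM in juvenile and 209 to 1024 CPM in older members, against 5319 to 7517 and 2769 to 6406 CPM in the other cells. It holds C1qa and C1qb, which the rule capped, so this gap follows in part from the choice of cells. Leaving out 65 members with at least 3 UMIs of Rgs5 and Kcnj8, over 10% Ttr or over 5% haemoglobin, a step added after seeing the data, raised the count of genes called between juvenile and older units of at least 5 cells from 8 to 39 (12 higher and 27 lower) and that between EAE and older units from 3 to 6.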

How the data were processed

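The authors aligned reads to mm10 and counted UMIs per gene and cell barcode, with UMI-tools 0.5.3, STAR 2.5.3a and featureCounts 1.6.1 per the submitters' processing notes, and deposited these whole counts for each library. Genes are as in the files and positions from GENCODE M21 (GRCm38, the same build). Kept cells held 501 to 5999 genes, with mitochondrial UMIs below 25%, which left 50625 of 54646 barcodes in libraries of 15755504 to 34326349 UMIs. The members, gene lists and tests were chosen with earlier results of these data known, and the 32 lists support no direction by themselves. UMIs of members were summed per unit (Juvenile 1+2, Juvenile 3+4, Adult 1, Adult 2+3, Aged 1+2 and EAE 1+2) and tested in R 4.3.3 by the quasi-likelihood test of edgeR 4.0.16 with TMM factors, its default filter, robust dispersions and Benjamini-Hochberg adjustment over all genes tested, with DESeq2 1.42.0 as an alternative. CPM are member UMIs scaled to 1000000. Juvenile members were clustered in scanpy 1.11.5 with Python 3.11.15 (2000 variable genes, 12 components, Leiden resolution 0.5), and Scrublet called doublets. Named genes were the fibroblast markers, genes called in a contrast, listed genes that were called with the highest CPM, and genes leading a subcluster by ratio (prior 10 CPM, at least 50 CPM). Since the designed fit called none, those called in the fits added later were named, and genes in the sections on like cells were picked after their values were seen. On simulated counts for juvenile against older cells, the designed fit recovered 8% of 4-fold and 30.6% of 8-fold changes over 9946 genes. The fit of units with at least 5 cells recovered 87.9% and 99% over 1547 genes, and also called 7 genes that had not been changed. The simulation set a dispersion of 0.1 and the same mean in all units, and changed only genes above the median level. The shares hold for those settings, and the spread of the real units was not simulated. The cause of a difference was not tested, and confidence intervals cover counting error only. 1 gene of the lists is not reported here.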

Additional observations from a re-analysis of the deposited data

Results flagged for a closer look

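Over the 4 juvenile libraries, 65 measures were tested for a sample far from the others (Dixon's gap at its 95% critical value), and 3 passed. Chance alone flags about 1 in 20 such groups. Vcam1 was 54.8 CPM in Juvenile 3 and 92.2 to 97.2 CPM in the other 3 libraries. The 8 fibroblast markers, which include the genes of the rule, summed to 10948 CPM in Juvenile 1 and 9735 to 9863 CPM in the others. The 4 B cell markers summed to 19 CPM in Juvenile 4 and 0.660 to 3.07 CPM in the others.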

How the results depend on the processing

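The number of genes called between juvenile and older members depended on nearly every choice, and the cause was not tested. Against 0 in the designed fit it was 3 with RLE size factors, 63 with DESeq2, 444 without a filter on low counts, 60 with members at 4 or more UMIs of the rule genes, 3 without doublets and 2 without the EAE unit. Leaving out 1 library gave 1 to 49. Of the alternatives added later, units of at least 5 cells gave 8, the same with DESeq2 140, without Juvenile 1+2 53, without Juvenile 3+4 32, without Adult 1 144, without EAE 1+2 7 and without cells with mural, choroid plexus or red blood cell transcripts 39. Libraries of at least 4 cells gave 238, and the 3 Adult libraries as 1 unit 37. Between EAE and older members the count was 0 in the designed fit, 7 with DESeq2, 44 without a filter and 5 at 4 or more UMIs. Units of at least 5 cells gave 3, with DESeq2 16, without Juvenile 1+2 22, without Juvenile 3+4 22, without Adult 1 4, without Adult 2+3 1, and without the mixed cells 6. Libraries gave 16 and Adult as 1 unit 3.

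With the replicate number as a block, libraries of at least 4 cells gave 96 genes between juvenile and older and 4 between EAE and older members. The numbers mark no shared animal or batch in the labels, and deviations of same-numbered libraries correlated at -0.10 to 0.10. The difference in dividing cells over libraries was 7.69 percentage points (exact permutation p = 0.0159) at 16 or more UMIs of the rule genes, 1.89 (p = 0.651) at 3 or more cell cycle UMIs, 5.97 (p = 0.556) at 1 or more, 6.00 (p = 0.524) without thinning and 4.22 to 8.24 with 1 library left out. It reached an exact permutation p of 0.0286 without Aged 1. The mean juvenile share of members was 8.0% at 4 and 5.50% at 16 or more UMIs. Not run, because too few cells or samples remained, were libraries of at least 10 cells with or without the block, Adult alone, 16 or more UMIs for the gene tests, leaving out Aged 1, Aged 2 or a juvenile unit from the designed fit. Aged alone equals the designed fit. The 29 Adult and Aged cells limit every comparison of age.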

Other observations

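Y-linked transcripts separated the juvenile pairs. Ddx3y was 0 CPM in members of Juvenile 1 and 2 and 56.1 and 52.7 CPM in Juvenile 3 and 4, and Eif2s3y was 0 and 0 CPM against 40.3 and 42.3 CPM. Both were 0 in each Adult, Aged and EAE library. Xist was 95.1 and 101 CPM in Juvenile 1 and 2 and 54.1 and 66.5 CPM in Juvenile 3 and 4.

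Gja1, a connexin that stood on the list of astrocyte markers, was abundant in members. It was 2055 to 2888 CPM in juvenile members and 3411 CPM in subcluster 1 against 142 CPM in the Tcf21-led subcluster 7. The astrocyte list as a whole summed to 2132 to 3002 CPM in juvenile members and 705 to 987 CPM in other cells of the same libraries.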
